A study of Mus musculus with 20 samples.

Results

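The endothelial and sinus lining genes described here are 10 genes (Pecam1, Cdh5, Kdr, Tek, Eng, Stab1, Stab2, Lyve1, Plvap and Emcn), taken by symbol from the 54532 rows of the spleen gene count table. Each symbol matched 1 row, and all 10 genes were among the 17600 that passed the filter on low counts and were tested. RNA was sequenced from whole spleen of mice aged 4 weeks that were either controls (11 libraries) or bred on a gluten-free diet (9 libraries). The sample IDs take 2 forms, a plain number or a number after the letter S, and the meaning of the S is not given in the sources used here. The libraries therefore fell into 4 groups: 8 control and 4 gluten-free libraries with plain IDs, and 3 control and 5 gluten-free libraries with S IDs. Strain, sex and diet composition are not given in the sources used here, and nothing states that the libraries of a group came from separate mice, so p-values measure the spread between these libraries.

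Blood vessels are lined by endothelial cells, which hold together through junction proteins and respond to growth factors through surface receptors. In the spleen, blood of the red pulp drains into venous vessels. Cells that line venous sinuses carry scavenger receptors that take up damaged proteins and hyaluronan. Several of the 10 genes are also known from blood cells: PECAM1 sits on platelets and many leukocytes, and stabilin-1 and LYVE1 occur on some macrophages. In whole spleen, fewer cells of a type and less RNA per cell cannot be told apart.

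RefSeq promoters on GRCm38.p6 were found for 6 of the 10 genes (Kdr, Tek, Eng, Stab1, Stab2 and Emcn). The 250 bases before the start of transcription are printed for Kdr, the gene with the larger of 2 called differences between the ID forms, and for Stab1. Control and gluten-free levels of Stab1 did not overlap within the S IDs, where no gene was called. The share of all tested genes without overlap there was not counted. The Kdr stretch is chr5:75978456-75978705 and the Stab1 stretch is chr14:31168642-31168891, both read 5′ to 3′ on the minus strand. Capitals mark matches on either strand to the core of ETS transcription factor sites, searched as CCGGAA or CAGGAA.
Kdr promoter: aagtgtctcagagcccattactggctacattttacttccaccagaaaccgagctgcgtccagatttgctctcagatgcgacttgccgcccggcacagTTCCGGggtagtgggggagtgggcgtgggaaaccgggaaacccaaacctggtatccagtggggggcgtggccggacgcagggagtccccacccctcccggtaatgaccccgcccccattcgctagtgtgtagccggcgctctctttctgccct
Stab1 promoter: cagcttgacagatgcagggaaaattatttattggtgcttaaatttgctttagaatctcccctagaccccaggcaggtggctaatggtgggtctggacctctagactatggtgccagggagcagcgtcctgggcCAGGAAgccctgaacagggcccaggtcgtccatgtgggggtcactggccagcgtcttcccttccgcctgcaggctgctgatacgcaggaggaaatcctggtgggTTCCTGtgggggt
One or the other ETS core occurred in the same stretch of Kdr, Tek, Stab1, Stab2 and Emcn and was not found in that of Eng. Among 32851 RefSeq promoters of that length, 35.1% held at least 1 of these cores. The GATA core AGATAA, which does not overlap them, was in none of the 6 stretches and in 9.99% of all promoters. A match describes the letters and does not show that a factor binds there.

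The sum of counts assigned to genes was 13626021 to 24268237 per library. Levels below are CPM, counts scaled to a common library size after TMM scaling, a scaling that allows for a few abundant genes taking a different share of each library. A gene was called when its adjusted p from edgeR's quasi-likelihood test, adjusted by Benjamini-Hochberg over all 17600 genes, was under 0.05. Some libraries stood apart: gluten-free S5 was the lowest of all 20 for 5 of the 10 genes, gluten-free S6 was among the lowest 3 for 8 of them, and control S2 was the highest for 6. Markers of pancreatic acinar cells summed to 8787 CPM in gluten-free S1 and 773 CPM in control 4, against 6.13 to 26.0 CPM in the other 18 libraries, and calls that change without either library are given below.

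Compared per transcript length, as TPM (length-corrected counts scaled to a common total) from the deposited gene lengths, Plvap was the highest of the 10 genes at 114 ± 29.2 TPM (SD, n = 20 libraries). Eng followed at 41.0 ± 4.75 TPM and Pecam1 at 40.3 ± 13.7 TPM, and these 2 were not separated, since Eng was the higher in 11 of 20 libraries. Stab2 was at 22.4 ± 6.10 TPM, Cdh5 at 16.3 ± 3.76 TPM and Kdr at 11.4 ± 2.94 TPM. Stab1 at 5.92 ± 1.44 TPM and Tek at 5.61 ± 1.64 TPM were again not separated (Stab1 higher in 11 of 20 libraries), and Lyve1 was at 4.22 ± 1.31 TPM. Emcn was the lowest at 0.639 ± 0.246 TPM, with 12 to 66 counts per library, so counting error weighs most on it. Stab2 exceeded Cdh5, and Tek exceeded Lyve1, in 18 libraries, and each other gene exceeded the next in all 20.

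**Figure D1:**
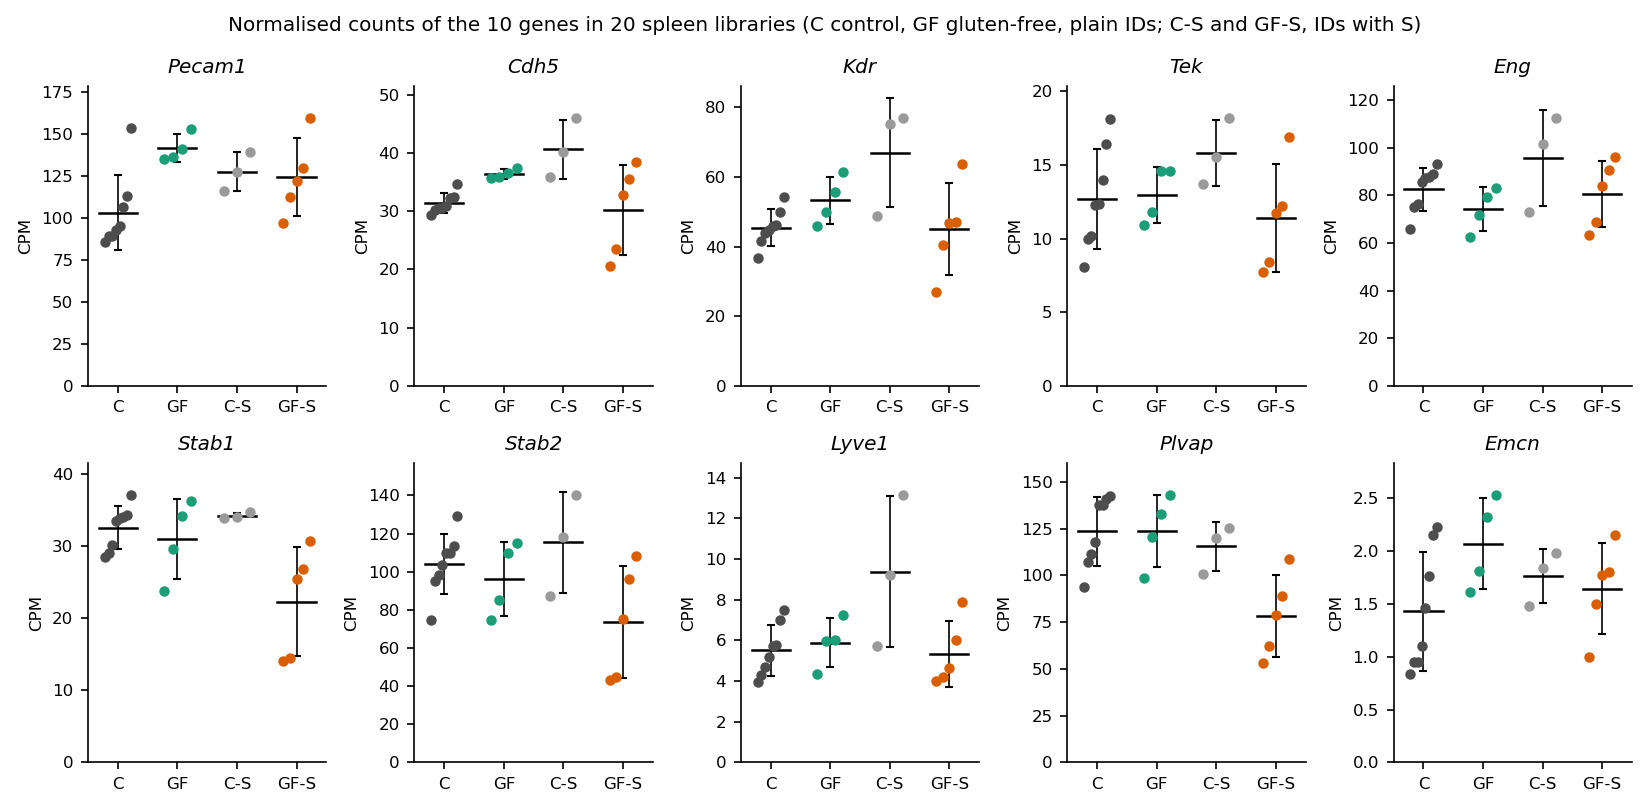
Each panel plots the CPM of 1 gene (y axis, from 0) in the 20 libraries by group (x axis: C and GF, control and gluten-free with plain IDs, n = 8 and 4; C-S and GF-S, the same with S IDs, n = 3 and 5). Points are libraries, horizontal lines are means and bars are SD; Pecam1 and Cdh5 are higher in GF than in C, and the lowest Stab1, Stab2 and Plvap values are all in GF-S.

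Within the plain IDs, 2 of the 10 genes rose in gluten-free spleens, Pecam1 and Cdh5, and none fell. Of all genes tested in this comparison 41.4% were called, 18.5% higher and 22.9% lower. So 2 of 10 is below the share called in either direction and near the share called higher. The median log2 fold change of the 10 genes was 0.05, beside 0.03 over all genes tested, and it was -0.04 without gluten-free 9.

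Pecam1 encodes an adhesion molecule of endothelial junctions (11:106654217-106750628, minus strand, GRCm38; all gene positions are those of the deposited table). In the 8 control libraries with plain IDs it ranged from 85.5 to 154 CPM with a median of 94.1. The 4 gluten-free libraries 7, 8, 9 and 10 had 153, 135, 141 and 137 CPM. All 4 lay above every control library except control 8, which had 154 CPM, so the groups overlapped through that 1 library. The log2 fold change was 0.44 ± 0.13 (SE; edgeR adjusted p = 0.0139), and without control 8 it was 0.55 (adjusted p = 3.8e-05).

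Cdh5 encodes VE-cadherin, the cadherin of endothelial adherens junctions (8:104101625-104144511, plus strand). Its control values ran from 29.3 to 34.6 CPM with a median of 30.7. The gluten-free values were 37.4, 35.9, 35.7 and 36.5 CPM in libraries 7, 8, 9 and 10. The groups did not overlap, and both were narrow. The share of all tested genes without overlap in this comparison was not counted. The log2 fold change was 0.20 ± 0.07 (edgeR adjusted p = 0.0402). It passed only just: with control 2, control 4 or any 1 of the 4 gluten-free libraries left out, the adjusted p was 0.0613 to 0.112, and it was 0.0867 without a filter on low counts and 0.170 in a fit on all 20 libraries.

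Markers of other cells moved with the diet in these libraries. All 17 erythroid markers were lower in the gluten-free group, where their sum was 6130 to 10346 CPM against 12893 to 25068 CPM in the controls. All 12 neutrophil markers, 11 of 11 tested platelet markers and all 10 T cell markers were higher (platelet markers, 2064 to 2965 CPM against 735 to 1905 CPM). Control 8, the control library with high Pecam1, also had the lowest erythroid sum of its group. With the mean erythroid level as a covariate, the log2 fold change of Pecam1 was -0.45 (edgeR adjusted p = 0.153) and that of Cdh5 was 0.17 (adjusted p = 0.633). The erythroid level did not overlap between the plain-ID groups, so it and the diet cannot be told apart there.

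The growth factor receptors did not pass in this comparison. Kdr, the main signalling receptor for VEGF-A (5:75932827-75978458, minus strand), had 46.0, 55.7, 61.5 and 50.03 CPM in gluten-free libraries 7, 8, 9 and 10, and 36.7 to 54.3 CPM with a median of 45.3 in controls. All 4 gluten-free values were above the control median and 2 were above the highest control (log2 fold change 0.21 ± 0.10, edgeR adjusted p = 0.0960). Tek, the receptor for angiopoietins (4:94739289-94874976, plus strand), had group means of 12.7 ± 3.40 CPM (SD, n = 8) and 13.0 ± 1.88 CPM (SD, n = 4). Eng, endoglin, a co-receptor for TGF-beta family ligands (2:32646595-32682669, plus strand), had means of 82.6 ± 9.07 CPM in controls and 74.4 ± 9.14 CPM in gluten-free libraries (log2 fold change -0.17 ± 0.10, edgeR adjusted p = 0.184).

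Nor did the sinus scavenger receptors pass. Stab1, stabilin-1 (14:31139013-31168641, minus strand), had means of 32.5 ± 3.01 CPM in controls and 30.9 ± 5.54 CPM in gluten-free spleens. Stab2, stabilin-2, the hyaluronan-clearing receptor of sinusoidal lining cells (10:86841198-87008025, minus strand), had 104 ± 15.8 and 96.0 ± 19.4 CPM. Lyve1, a hyaluronan receptor best known from lymphatic vessels (7:110850607-110863239, minus strand), had 5.51 ± 1.25 and 5.90 ± 1.19 CPM. Their adjusted p-values in edgeR were 0.523, 0.419 and 0.747.

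The remaining pair are surface proteins. Plvap forms the diaphragms across endothelial fenestrae and caveolae (8:71497765-71511752, minus strand), and its means were 124 ± 18.4 CPM in controls and 124 ± 19.2 CPM in gluten-free libraries (edgeR adjusted p = 0.923). Emcn, endomucin, a sialomucin of venous and capillary endothelium (3:137341067-137432185, plus strand), had means of 1.43 ± 0.56 and 2.07 ± 0.43 CPM. Its log2 fold change of 0.52 ± 0.29 was the largest of the 10 genes in the plain IDs and did not pass (edgeR adjusted p = 0.159).

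Scaling by library totals instead of TMM moved the median log2 fold change of all tested genes in the plain IDs from 0.03 to 0.30, and 6521 of 8565 calls were then higher, against 3257 of 7288 with TMM. On that scale 5 of the 10 genes were called higher (Pecam1, Cdh5, Kdr, Emcn and Plvap), and the sign of Plvap turned from -0.02 to 0.26 (edgeR adjusted p = 0.0383). Stab1, Stab2 and Eng, not called on either scale, turned from -0.09, -0.14 and -0.17 to 0.18, 0.13 and 0.11.

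Within the S IDs none of the 10 genes was called, and 0% of all tested genes were. In this comparison 904 genes had an unadjusted p under 0.05 in edgeR and DESeq2 called 4 genes. All 10 genes had a log2 fold change below 0, with a median of -0.53 beside 0.01 over all tested genes. At an unadjusted p under 0.05 there were 4 of them: Lyve1, Plvap, Stab1 and Kdr. These 10 values share their libraries and are not independent.

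**Figure D2:**
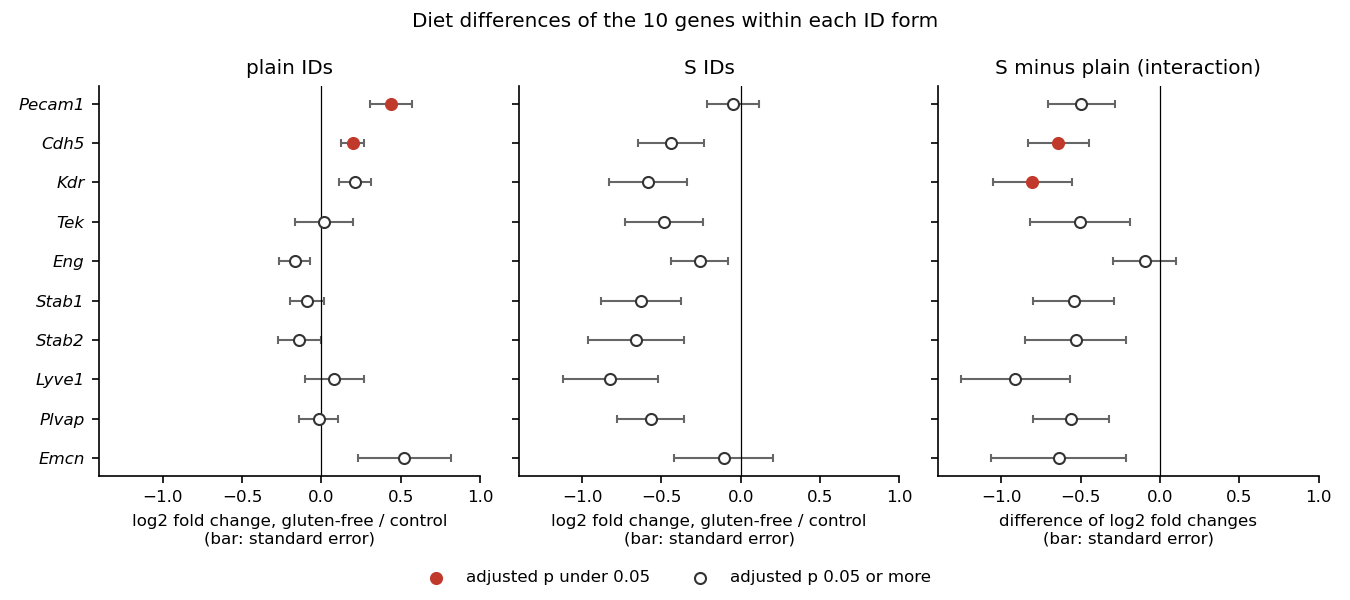
Log2 fold changes of gluten-free over control (x axis) for the 10 genes (y axis) within plain IDs and within S IDs, and the difference of the 2 log2 fold changes. Bars are standard errors and filled points passed edgeR's adjusted p threshold of 0.05; Pecam1 and Cdh5 pass in the plain IDs, none in the S IDs, and Cdh5 and Kdr in the difference.

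Stab1 was the gene whose S-ID groups did not overlap. How many of all tested genes separated in this way was not counted. Controls S1, S2 and S6 had 33.8, 34.6 and 34.0 CPM. Gluten-free S1, S3, S5, S6 and S8 had 30.7, 25.4, 14.0, 14.4 and 26.8 CPM, all below the lowest control. The log2 fold change was -0.63 ± 0.25 (edgeR adjusted p = 0.916), and it was -0.50 without gluten-free S5 and -0.51 without gluten-free S6.

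Stab2 had 118, 140 and 87.5 CPM in controls S1, S2 and S6. The gluten-free libraries S1, S3, S5, S6 and S8 had 108, 75.3, 44.7, 43.5 and 96.1 CPM, so S5 and S6 were again the lowest and the groups overlapped. The log2 fold change was -0.66 ± 0.30 (edgeR adjusted p = 0.916). Lyve1 had 9.22, 13.2 and 5.74 CPM in the controls and 7.91, 4.63, 4.22, 3.99 and 6.00 CPM in the gluten-free libraries. Its log2 fold change of -0.82 ± 0.30 was the largest in size of the 10 genes here (adjusted p = 0.916), and it was -0.48 without control S2, the library highest in Lyve1.

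Kdr had 75.3, 76.9 and 48.9 CPM in controls S1, S2 and S6 and 63.8, 46.9, 27.1, 40.4 and 47.0 CPM in gluten-free S1, S3, S5, S6 and S8. Control S6 was close to the gluten-free libraries and the groups overlapped (log2 fold change -0.58 ± 0.25, edgeR adjusted p = 0.916). Plvap had 126, 120 and 101 CPM in the controls and 109, 89.3, 53.3, 62.2 and 78.8 CPM in the gluten-free libraries, of which only S1 exceeded any control (log2 fold change -0.57 ± 0.21, adjusted p = 0.916). Tek (-0.48 ± 0.25), Cdh5 (-0.44 ± 0.21), Eng (-0.26 ± 0.18) and Emcn (-0.11 ± 0.31) had smaller log2 fold changes.

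Pecam1 stood at -0.05 ± 0.17 on the log2 scale within the S IDs. Its values were 116, 128 and 139 CPM in controls S1, S2 and S6 and 122, 130, 113, 159 and 96.8 CPM in gluten-free S1, S3, S5, S6 and S8. Gluten-free S6, among the lowest 3 of 20 libraries for 8 of the genes, had the highest Pecam1 value of all 20. Without gluten-free S1, the acinar-rich library, the median log2 fold change of the 10 genes in the S IDs was -0.68.

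None of the 14 macrophage markers was called within the S IDs, and none was at 0 in any group. Their sum was 982 to 1672 CPM in control and 691 to 1449 CPM in gluten-free libraries, with gluten-free S5 and S6 at 691 and 743 CPM. Fibroblast and reticular markers summed to 1045 to 1357 CPM in control and 503 to 1195 CPM in gluten-free libraries. The part of these cells in the lower values of the 10 genes was not tested.

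The difference between the diet effects of the 2 ID forms, tested as an interaction over all 20 libraries, was below 0 for all 10 genes. It was called for Cdh5 and Kdr, both lower, where 25.7% of all tested genes were called, 15.3% higher and 10.3% lower. For Kdr the difference was -0.80 ± 0.25 (edgeR adjusted p = 0.0214), as the diet mean ratio was above 1 in the plain IDs and below 1 in the S IDs. For Cdh5 it was -0.64 ± 0.19 (adjusted p = 0.0188). Lyve1 (-0.91 ± 0.35, adjusted p = 0.0562), Plvap (-0.56 ± 0.24, adjusted p = 0.0882) and Pecam1 (-0.50 ± 0.21, adjusted p = 0.0918) missed the threshold, and Eng had the smallest difference (-0.10 ± 0.20). Markers of other cells differed in the same test: 16 of 17 erythroid markers were higher, and 10 of 11 platelet, 12 of 12 neutrophil, 5 of 10 fibroblast and reticular and 5 of 6 mesothelial markers were lower. The median over the 10 genes was -0.55, beside -0.04 over all tested genes. With the mean erythroid level as a covariate that median was -0.93, beside 0.10 over all tested genes. The interaction was then called for 7 of the 10 genes, beside 7.97% of all tested genes. The erythroid level (mean log2 CPM) was 7.74 to 8.45 in the plain-ID gluten-free group and at least 8.79 in every other group. It and the interaction therefore cannot be told apart, and these values do not show a difference freed of erythroid content. The part of the platelet, neutrophil, fibroblast and mesothelial markers in the differences of the 10 genes was not tested. Without gluten-free S1, the interaction was called for 5 of the 10 genes, beside 27.9% of all tested genes. These were Stab1 (-0.67, edgeR adjusted p = 0.0442), Plvap (-0.69, 0.0249) and Lyve1 (-1.08, 0.0208) as well as Cdh5 and Kdr. The calls for Cdh5 and Kdr rest on few libraries: without control S2 neither passed (adjusted p = 0.0686 for Cdh5 and 0.0684 for Kdr), and Kdr did not pass without control S1 (0.0728) or gluten-free 9 (0.0508).

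ID form itself was compared within each diet. Between control groups, Kdr was called higher with S IDs, with means of 67.0 ± 15.7 CPM (SD, n = 3) against 45.4 ± 5.25 CPM (SD, n = 8); the log2 fold change was 0.56 ± 0.14 (edgeR adjusted p = 0.0451). Of all genes 2.45% were called there, 1.81% higher and 0.648% lower. All 11 tested platelet markers were also called higher with S IDs in the controls (median log2 fold change 1.47; sum 1571 to 4596 CPM against 735 to 1905 CPM), as were 3 of 10 fibroblast and reticular markers, and their part in the Kdr difference was not tested. The Cdh5 values of control S1, S2 and S6 (40.1, 46.0 and 35.8 CPM) were all above the highest plain-ID control of 34.6 CPM, though the adjusted p was 0.0649. The share of all genes separated in this way was not counted here either. The Kdr call was lost when control S1 or control S2 was left out (edgeR adjusted p = 0.276 in each case), and also without plain-ID control 2, 3, 4, 6 or 7 (0.0687 to 0.0795). Between gluten-free groups, Plvap was called lower with S IDs, at 78.5 ± 21.98 CPM (SD, n = 5) against 124 ± 19.2 CPM (SD, n = 4); the log2 fold change was -0.71 ± 0.18 (edgeR adjusted p = 0.0130, and 0.0547 without gluten-free 9). Without gluten-free S1, Stab1 was called lower there too (log2 fold change -0.65, edgeR adjusted p = 0.0469). In this comparison 33.4% of all genes were called, 17.2% higher and 16.2% lower. With library totals 5 of the 10 genes were called lower in that comparison, and 1653 of 7326 calls over all genes were higher, against 3033 of 5883 with TMM. All 17 erythroid markers were higher with S IDs in the gluten-free groups, while 3 of 14 macrophage markers (median log2 fold change -0.37; sum 691 to 1449 CPM against 1024 to 1432 CPM), 9 of 12 neutrophil and 2 of 10 fibroblast and reticular markers were lower. The part of these 3 lists in the Plvap difference was not tested. With the erythroid mean as a covariate Plvap stood at -1.10 (edgeR adjusted p = 0.415) and no gene of the table was called. The erythroid level did not overlap between the gluten-free groups (7.74 to 8.45 with plain IDs, 8.79 to 10.1 with S IDs). It and the ID form therefore cannot be told apart there.

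Over both ID forms, with ID form as a term, none of the 10 genes was called for diet, nor was any other gene (0%). At an unadjusted p under 0.05 there were 4485 genes in edgeR, and DESeq2 called 1561. Pecam1 had a log2 fold change of 0.25 ± 0.12 (edgeR adjusted p = 0.180) and Stab1 one of -0.30 ± 0.14 (adjusted p = 0.181). The median of the 10 genes was -0.18, beside 0.01 over all tested genes.

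**Figure D3:**
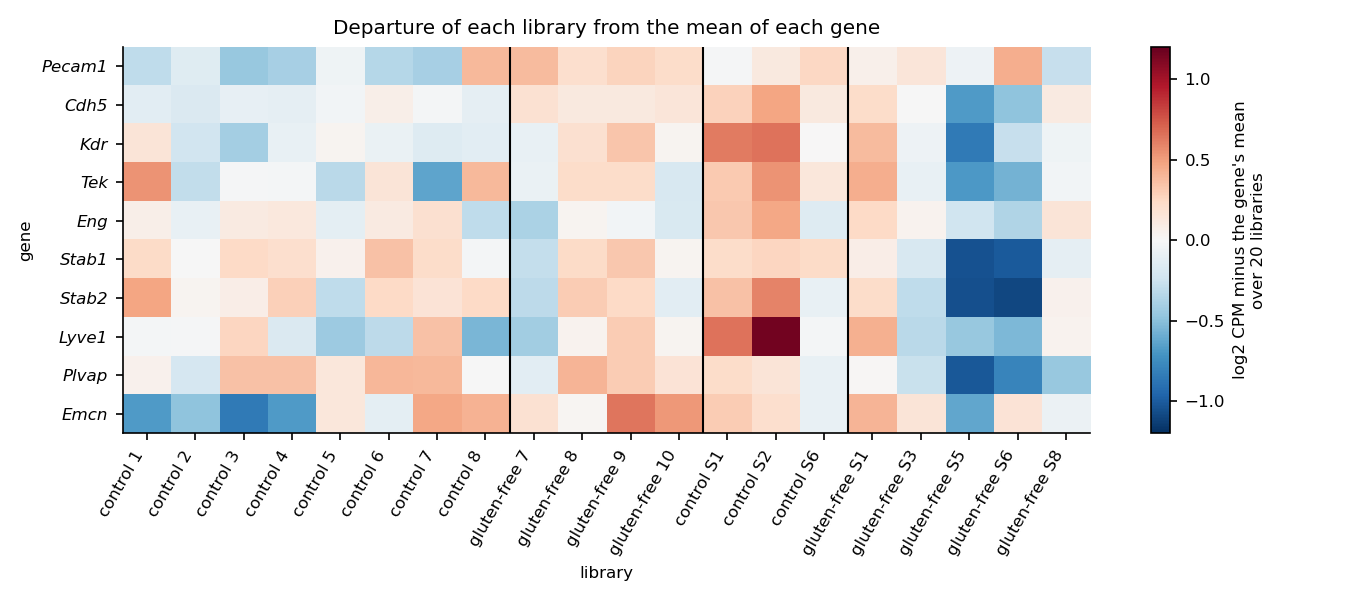
Departure of log2 CPM from the mean of each gene over 20 libraries (colour), for the 10 genes (rows) in each library (columns), with lines between the 4 groups. Gluten-free S5 and S6 are low for most genes other than Pecam1, control S1 and S2 are high for Kdr and Lyve1, and Pecam1 is high in control 8 and gluten-free S6.

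Other vascular genes were read from 8 lists holding 107 genes outside the 10, of which 105 were tested. In the plain IDs 28 were called higher and 5 lower, together fewer than the 41.4% called over all genes would give. By direction, the share higher was above the 18.5% of all genes and the share lower was below the 22.9%. The part of other cells, whose markers also moved in the plain IDs, was not tested. The median log2 fold change was 0.25. In the interaction 2 were called higher and 26 lower, with a median of -0.47, beside 25.7% of all genes, 15.3% higher and 10.3% lower. The counts per list below are for the plain IDs and are to be read against 18.5% of all genes called higher and 22.9% called lower there. The lists share some genes (Tie1, Ptprb, Sox18 and Flt4), so these counts are not of separate sets.

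In the endothelial BMP and TGF-beta signalling list 8 of 16 tested genes rose in the plain IDs and none fell. The 8 were a larger share than the 18.5% of all genes that rose, while 22.9% of all genes fell. Markers of T cells, neutrophils and platelets rose in the same comparison, and their part in this count was not tested. In the interaction 8 of the 16 were lower, where 25.7% of all genes were called in either direction and 10.3% were lower. Tgfb1, a ligand of this family made by many cells, rose from 136 ± 18.1 to 197 ± 15.8 CPM (log2 fold change 0.52, edgeR adjusted p = 0.000805), and its interaction was -0.92 (adjusted p = 0.00281). Smad7, an inhibitory SMAD, rose from 15.1 ± 3.11 to 23.6 ± 2.22 CPM. Bmpr2, the type II receptor for BMPs, stood at 0.08 on the log2 scale (adjusted p = 0.429). Of the VEGF and angiopoietin ligands and receptors 4 of 13 rose, among them the neuropilin Nrp2 (0.49, adjusted p = 0.000798) and the Tek ligand Angpt1 (0.66, adjusted p = 0.00601). With S IDs among the controls Angpt1 was also called higher (1.42, edgeR adjusted p = 0.0157), as were the platelet markers. Nrp2 was not called there (0.26, adjusted p = 0.328), and the part of platelets was not tested.

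Among 28 pan-endothelial genes, which include Tek, 4 rose and 1 fell in the plain IDs, a smaller share than the 41.4% called over all genes. Myct1 rose from 11.8 ± 3.09 to 21.97 ± 1.13 CPM and the junction gene Esam from 28.9 ± 4.22 to 42.8 ± 8.07 CPM. Myct1 and Esam were also called higher with S IDs among the controls (log2 fold change 1.57 and 0.70, edgeR adjusted p = 0.00998 and 0.0272). The 11 tested platelet markers were higher in both comparisons too, and their part was not tested. Nos3, the endothelial nitric oxide synthase, fell from 5.47 ± 1.01 to 3.74 ± 0.63 CPM. Ptprb, the phosphatase that acts on the Tek receptor, had a log2 fold change of -0.07 (edgeR adjusted p = 0.631). Of 18 sinusoidal genes 3 rose and 1 fell, again a smaller share than over all genes: the scavenger receptor gene Cd36 fell from 217 ± 24.6 to 166 ± 13.5 CPM, Cd274 had a log2 fold change of 0.65 and Lifr one of 0.28. Mrc1, the mannose receptor of sinus endothelium and macrophages, stood at -0.18 (adjusted p = 0.428).

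In the venous and activated list 2 of 8 tested genes rose and 1 fell, and in the lymphatic list 2 of 7 rose and 1 fell, both near the 41.4% called over all genes. Vwf rose from 101 ± 31.3 to 211 ± 48.7 CPM and Selp from 8.65 ± 3.72 to 16.7 ± 3.22 CPM, while Ackr1 fell from 85.7 ± 20.2 to 36.2 ± 7.31 CPM. Vwf and Selp are also made by megakaryocytes, and Ackr1 by red cell precursors; the platelet and erythroid markers moved the same ways, and their part was not tested. Vcam1 stood at 0.00 (edgeR adjusted p = 0.990). Mmrn1, also a platelet gene, and Pdpn rose in the lymphatic list and Reln fell, with log2 fold changes of 0.92, 0.87 and -0.83. Ccl21a varied widely between control libraries and did not pass (-1.14, edgeR adjusted p = 0.334).

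Of 13 arterial and Notch genes 3 rose, among them Notch1 from 22.7 ± 6.07 to 37.1 ± 1.64 CPM and the connexin gene Gja4 from 5.08 ± 1.03 to 7.88 ± 0.89 CPM, while Gja1 stood at -0.32 (edgeR adjusted p = 0.165); 18.5% of all genes rose. The 3 calls among 7 caveolae genes were near the 41.4% over all genes: Cavin2 (0.56) and Cavin1 (0.54) rose and Pacsin2 fell (-0.72), with Ehd2 at 0.07 (adjusted p = 0.644). In the interaction 25.7% of all genes were called, 15.3% higher and 10.3% lower. There 4 of the 7 were lower, Cavin1 at -1.02 and Cavin2 at -1.25 among them, and Pacsin2 was higher at 0.69. Cavin2 was also called higher with S IDs among the controls (1.26, edgeR adjusted p = 0.0118), as were the platelet markers. Cavin1 was not called there (0.66, adjusted p = 0.0603), and the part of platelets was not tested.

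The 10 genes were then compared with each other across the 20 libraries, after the mean of each of the 4 groups was taken from log2 CPM. Of 45 pairs, 25 passed a permutation test of Pearson's r within groups (100000 permutations, Benjamini-Hochberg adjusted over 45 pairs, two-sided), 23 of them positive. By Spearman's rho 17 passed, all of them among the 25. Values of r ran from -0.69 to 0.86 with a median of 0.57. Without gluten-free S1, 14 pairs passed. How many pairs of other genes pass the same test was not counted.

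Pecam1 and Emcn had the lowest median r with the other genes (-0.36 and 0.21). Among the 28 pairs of the other 8 genes, a split made after these values were seen, r ran from 0.29 to 0.86 and 22 pairs passed. Stab1 and Plvap (r = 0.86, rho = 0.82, adjusted permutation p = 0.0012 for r), Eng and Lyve1 (r = 0.86, rho = 0.83, adjusted permutation p = 0.00112) and Stab1 and Stab2 (r = 0.86, rho = 0.78, adjusted permutation p = 0.00337) were the closest. Without the 2 libraries farthest from the median of the first gene, r was 0.82, 0.82 and 0.76 for these pairs, and 0.30 to 0.85 over the 28 pairs. Kdr and Stab2 had r = 0.76 (rho = 0.76, adjusted permutation p = 0.00765), and Tek and Stab2 r = 0.79 (rho = 0.83, adjusted permutation p = 0.00146).

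Pecam1 went the other way from part of the set. Its r was -0.69 with Eng (rho = -0.63, adjusted permutation p = 0.00405, and r = -0.52 without the 2 farthest libraries) and -0.55 with Lyve1 (rho = -0.55, adjusted permutation p = 0.0271 for r and 0.0576 for rho, and r = -0.42). With Kdr it was -0.03. When log2 CPM was scaled by library totals 20 pairs passed, all positive, so neither negative pair with Pecam1 passed on that scale. Emcn passed with Kdr alone (r = 0.48, rho = 0.37, adjusted permutation p = 0.0457), and that r was 0.25 without the 2 farthest libraries.

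**Figure D4:**
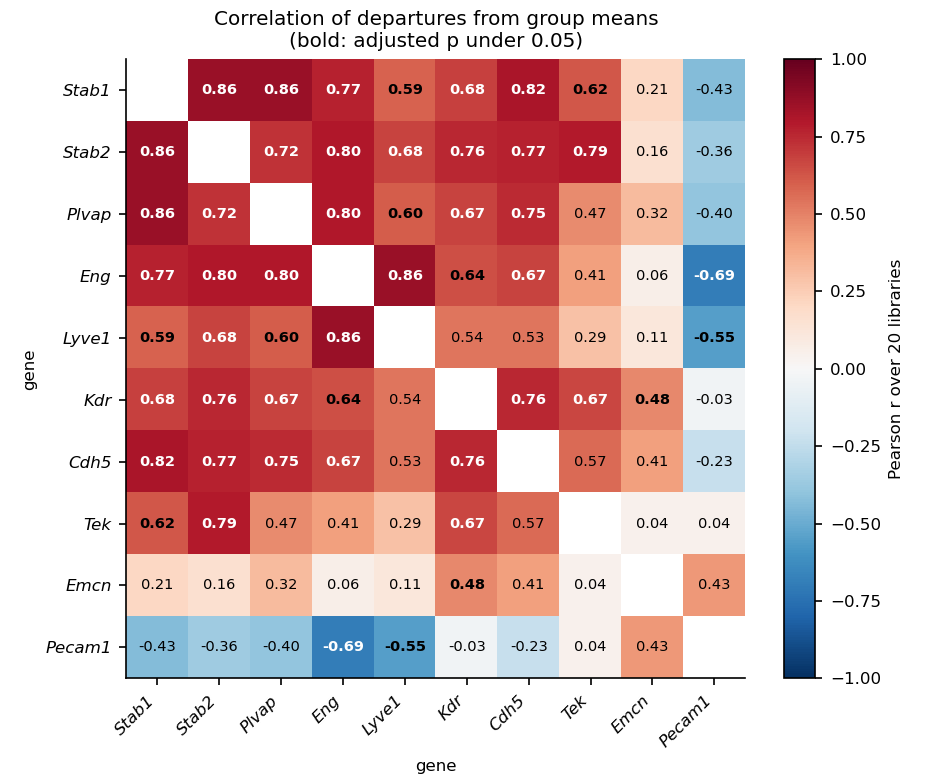
Pearson r between pairs of the 10 genes (both axes) over 20 libraries, as departures of log2 CPM from the 4 group means; bold values passed at an adjusted permutation p of 0.05. The block from Stab1 to Tek is positive throughout, and Pecam1 is negative with Eng (-0.69) and Lyve1 (-0.55).

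Each gene was also set against the mean log2 CPM of 3 marker lists in the same library, again as departures from group means (30 relations, adjusted together; these were added after the data had been seen). Pecam1 fell as erythroid markers rose (r = -0.85, rho = -0.77, adjusted permutation p = 0.0006 for r, and r = -0.74 without the 2 farthest libraries). Eng (r = 0.82, rho = 0.72, adjusted permutation p = 0.00276, and r = 0.72) and Lyve1 (r = 0.72, rho = 0.69, adjusted permutation p = 0.00836, and r = 0.67) rose with them. With the list of red pulp macrophage markers, which also holds marginal zone ones, 8 of the 10 genes passed, led by Plvap (r = 0.88, rho = 0.79, adjusted permutation p = 0.0006, and r = 0.81) and Stab2 (r = 0.84, rho = 0.75, adjusted permutation p = 0.00232, and r = 0.86). By r, Pecam1 and Emcn did not pass with it (r = -0.37 and 0.24), but Pecam1 passed by rank, in the opposite direction to the other genes (rho = -0.58, adjusted permutation p = 0.0407 for rho, and r = -0.52 without the 2 farthest libraries), while Kdr, 1 of the 8, missed by rank (rho = 0.55, adjusted permutation p = 0.0659). With the platelet list 3 passed by r: Eng (r = 0.70, rho = 0.58), Plvap (r = 0.63, rho = 0.64) and Kdr (r = 0.59, rho = 0.66), of which Eng missed by rank (adjusted permutation p = 0.0653 for rho). How many of all tested genes pass with these lists was not counted, and what these relations come from was not tested.

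**Figure D5:**
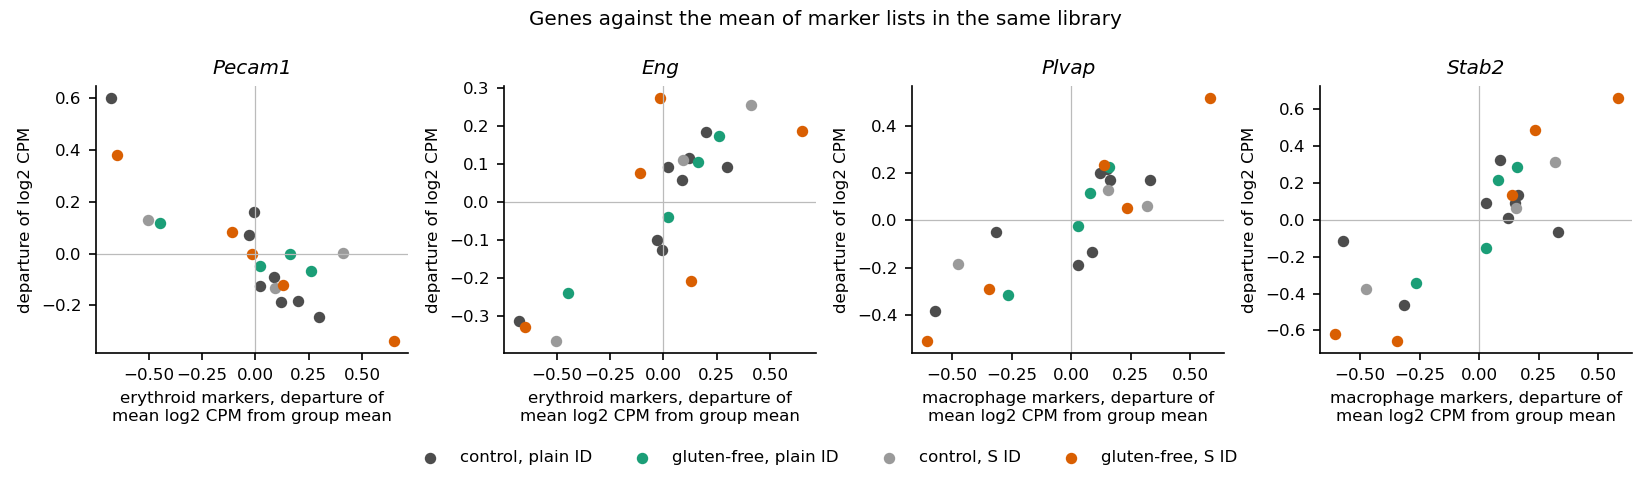
Departure of log2 CPM from the group mean (y axis) for Pecam1 and Eng against erythroid markers and for Plvap and Stab2 against macrophage markers (x axis, departure of the mean log2 CPM of the list); each point is 1 of 20 libraries, coloured by group. Pecam1 declines along the erythroid axis (r = -0.85) where Eng rises (r = 0.82), and Plvap and Stab2 rise along the macrophage axis (r = 0.88 and 0.84).

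The genes most like each of the 10 were sought by the same measure among the 13072 protein-coding genes whose mean reached 1 CPM (Pearson's r over 20 libraries, given as a description). Cdh5 was most like Pcdh12, a protocadherin of endothelium (r = 0.88), and Tek most like Ptprb (r = 0.90), and the receptor gene Calcrl also near it (r = 0.86). Stab1 was most like Tspan7, Gpr182 and Pcdh12 (r = 0.91, 0.89 and 0.89). Kdr was most like Fermt2, Apcdd1 and Cald1 (r = 0.91, 0.91 and 0.90). Stab2 and Eng both had Slc40a1, the iron exporter ferroportin of red pulp macrophages, as their second nearest gene (r = 0.92 and 0.93), behind Cd300e for Stab2 and Kcnj8 for Eng (both r = 0.93). Plvap was most like Coro1c (r = 0.95), Lyve1 most like Slc25a24 (r = 0.87) and Pecam1 most like Myo5a, Snx9 and Celf2 (r = 0.94 for each). For Emcn no gene exceeded r = 0.75, reached by Pdcl3.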

How the data were processed

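The authors deposited 1 table of raw counts per gene for the 20 spleen libraries. Per the submitters' processing notes the tools were CASAVA, HISAT2 2.0.5 and featureCounts 1.5.0 on GRCm38 (mm10); strand setting and annotation release are not given in the sources used here. Per the labels, total RNA was extracted with a lipid tissue kit and DNase and sequenced on a NovaSeq.

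From the deposited counts, edgeR 4.0.16 (R 4.3.3) computed TMM factors, filtered with filterByExpr and ran quasi-likelihood tests; the standard error is the log2 fold change divided by the root of F. Log2 CPM used a prior count of 2. DESeq2 1.42.0 and limma 3.58.1 (voom) were alternatives. Depth was 13626021 to 24268237 counts per library, and even the thinnest gene, Emcn, had at least 12 counts. No pair of libraries in a group agreed within sampling noise (chi-square per degree of freedom 6.12 to 103 over 47 pairs). The fits were tested on simulated data.

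The 10 genes and all lists were chosen with earlier results of these data known. Named besides the 10 were, per vascular list, up to 2 genes called higher and up to 2 called lower in the plain IDs with the smallest adjusted p and the uncalled gene with the highest mean CPM, and the 3 genes most like each of the 10, of which the text gives 1 to 3. Within-group replicate numbers shared by control and gluten-free IDs were used only in the alternative with a block.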

Additional observations from a re-analysis of the deposited data

Results flagged for a closer look

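Within the 8 control libraries with plain IDs, control 8 was far from the others in Pecam1, at 154 CPM, where the next library had 113 CPM. Of 30 sets of values checked in this way, over the 10 genes and the 3 groups of 4 or more libraries, this was the only 1 marked, and chance marks about 1 in 20.

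The diet difference of 2 genes differed between the ID forms by the test of the difference itself, with a log2 fold change in S IDs minus that in plain IDs of -0.64 for Cdh5 and -0.80 for Kdr (edgeR adjusted p = 0.0188 and 0.0214).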

How the results depend on the processing

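Within the plain IDs 2 of the 10 genes were called. That count was 5 with library totals, 1 without a filter, 1 with a fit on all 20 libraries and 0 with the erythroid covariate, under which 457 genes of the table were called in place of 7288, and it was 1 to 3 when each library was left out. Among genes called in at least 1 of the settings compared, the sign changed for Pecam1 with the erythroid covariate (-0.45) and for Plvap with library totals (0.26). Signs of uncalled genes changed too. Among them, Stab1, Stab2 and Eng stood at 0.18, 0.13 and 0.11 with library totals, and Plvap at 0.60 with the erythroid covariate. In the interaction the count of 2 was 5 with library totals (3952 genes of the table, 1320 higher, in place of 4516, 2701 higher). It was 7 with the erythroid covariate (1402 genes) and 4 without control 5 and gluten-free S1 (4858 genes). When each library was left out it was 0 (without control S2, 4258 genes) to 5 (without gluten-free S1, 4915 genes). Between control groups by ID form the count of 1 was 0 with library totals, with the mean CPM filter of 1, with voom (272 genes in place of 432) and with the fit on all 20 libraries, 2 with DESeq2 (911 genes) and 3 with the erythroid covariate (1012 genes). It was 0 to 3 when each library was left out; of the table, 0 genes were then called without control S1 or S2, 970 without control S6, 655 without control 5 and 236, 269 and 212 without control 2, 3 and 7. Between gluten-free groups the count of 1 was 5 with library totals, 2 with the fit on all 20 libraries, 2 without control 5 and gluten-free S1, 0 with the erythroid covariate (0 genes in place of 5883), and 0 to 2 when each library was left out. The count of 25 correlated pairs was 14 to 29 when each library was left out. For diet within S IDs and over both ID forms, none of the 10 genes was called under any alternative run; over both forms, counts in the table were 1561 with DESeq2, 3798 without control S6, 2988 without gluten-free S8, and 1 with no filter, with voom, with no ID form term or without gluten-free S1. The causes were not tested. The erythroid level of the plain-ID gluten-free libraries lay below that of all other libraries. In comparisons that hold this group, the counts with the erythroid covariate therefore cannot be told apart from diet or ID form.

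A replicate block over the 4 IDs shared by both diets (8 libraries) called 0 of the 10 genes and 0 genes of the table, and gave Pecam1 0.23 and Stab1 -0.38. Libraries of the same ID did not deviate together throughout (r = -0.26, -0.30, 0.20 and 0.51 for IDs 7, 8, S1 and S6). Between different IDs among these, r was 0.14 and 0.47 in the plain IDs and -0.23 and -0.25 in the S IDs. So few values cannot decide whether the numbers pair the libraries. Depth limits Emcn most, with 12 to 66 counts per library.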
